A study of Mus musculus with 36 samples.

Results

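The genes described here are 37 lysosomal genes, chosen by symbol from the 55561 genes that any of the 3 annotations of the series holds. They encode lysosomal enzymes other than the cathepsin proteases, the activator proteins that help those enzymes, and proteins of the lysosomal membrane. The rule is a list of symbols, drawn up with earlier results of these data known. All 37 had enough counts to be tested at 1, 2 and 3 months of age. RNA-seq was done on forebrain/midbrain (F/M) and cerebellum (Cb) of mice carrying a gene-targeted, disrupted Tpp1, and of their siblings, with 3 control and 3 Tpp1-/- libraries for each region and age and 36 libraries in all. Tpp1 encodes tripeptidyl peptidase 1, a lysosomal serine protease whose loss in children causes the CLN2 form of neuronal ceroid lipofuscinosis, and the disruption is in the germline, so it affects every cell type. At 1 month 2 control libraries of each region were labelled wild type and 1 was heterozygous (Tpp1+/-), while all controls of 2 and 3 months were labelled wild type. At 1 and 3 months each group held 1 female and 2 males, and at 2 months all mice were male.

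Lysosomes are acidic compartments in which macromolecules delivered by endocytosis, phagocytosis and autophagy are broken down. Each hydrolase removes 1 kind of bond, so that loss of a single enzyme leaves a specific substrate undigested, and many of these genes are known from the storage disease that their loss causes. Membrane proteins such as LAMP1 and LAMP2 line the inner face of the lysosome with glycans, transporters carry the products of digestion to the cytosol, and in the brain lysosomal genes are expressed by neurons and glia, with some, such as Cd68 and Laptm5, used as markers of microglia and other phagocytes. The transcription factor TFEB and its relatives bind an E-box in the promoters of many lysosomal genes.

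The libraries held 10609896 to 29942380 counts, with a median of 21049839. Tpp1 itself, in CPM (counts relative to the scaled size of the library), was at 16.1 to 27.8 in the 18 Tpp1-/- libraries. The 1-month controls held 74.4, 69.7 and 46.6 CPM of Tpp1 (F/M) and 89.5, 87.8 and 55.9 CPM (Cb). The 2-month controls held 91.5 to 94.8 CPM (F/M) and 110 to 111 CPM (Cb), and the 3-month controls 42.1 to 43.4 CPM (F/M) and 50.8 to 56.0 CPM (Cb). The 46.6 and 55.9 CPM came from the heterozygous libraries, and the controls of 3 months, although labelled wild type, were near these values. The 3 ages were counted with different annotations and strand settings, so age and processing cannot be told apart in these levels. All forebrain markers tested at each age were higher in control F/M and all 10 cerebellar markers higher in control Cb. In Cb at 2 months, the mean log2 CPM of 11 midbrain and thalamus markers was 1.53 to 1.78 in controls and -0.50 to 0.17 in Tpp1-/-, and 6 of the 11 were called lower. Of 14 choroid plexus markers, 8 in F/M and 9 in Cb were called higher in Tpp1-/- at 2 months and none at 1 or 3 months.

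In the controls, the 37 genes spanned more than 2 orders of magnitude of level per exon length. Psap, which encodes the precursor of the saposins, the activators of sphingolipid hydrolases, was the highest in both regions at each age, at 483 ± 7.27 RPKM (CPM divided by exon length in kilobases, SD, n = 3) in F/M and 512 ± 13.8 in Cb at 1 month and at 559 ± 17.9 and 568 ± 89.3 at 3 months. Lamp1, Laptm4a and Ids stood among the 5 highest in all 6 control groups. At 3 months in F/M, Ids, the iduronate-2-sulfatase of heparan and dermatan sulfate breakdown, was at 163 ± 4.40 RPKM, Lamp1 at 123 ± 0.684, Laptm4a at 110.5 ± 1.25 and Gaa, the acid alpha-glucosidase of glycogen, at 67.4 ± 3.14. These neighbours differed by more than their SDs. In Cb at 3 months the order was Lamp1 at 147 ± 4.94, Laptm4a at 132 ± 16.9, Ids at 71.5 ± 15.3 and Lgmn, the asparaginyl endopeptidase legumain, at 45.8 ± 2.74, and Lamp1 and Laptm4a did not differ beyond their spread.

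At the low end, Galc, the galactosylceramidase of myelin lipids, and Sgsh, the sulfamidase of heparan sulfate, stood among the 5 lowest in all 6 control groups, and Aga, which cleaves the link between glycan and asparagine, in 5. Manba, the beta-mannosidase, was the lowest of all in F/M at each age, at 1.90 ± 0.0184, 1.91 ± 0.256 and 1.86 ± 0.108 RPKM. Naglu was among the 5 lowest in F/M at each age and Cd68 and Laptm5 in Cb. In Cb at 3 months, Cd68 was at 2.16 ± 0.226 RPKM, Galc at 2.55 ± 0.0805, Sgsh at 2.62 ± 0.152, Aga at 2.63 ± 0.129 and Laptm5 at 2.90 ± 0.134, and Galc, Sgsh and Aga did not differ beyond their spread. Lipa and Npc1 have different exon lengths in the annotations of the ages, so their levels per length were not compared across ages. The highest member exceeded the lowest 225-fold to 300-fold in RPKM, depending on age and region.

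**Figure D1:**
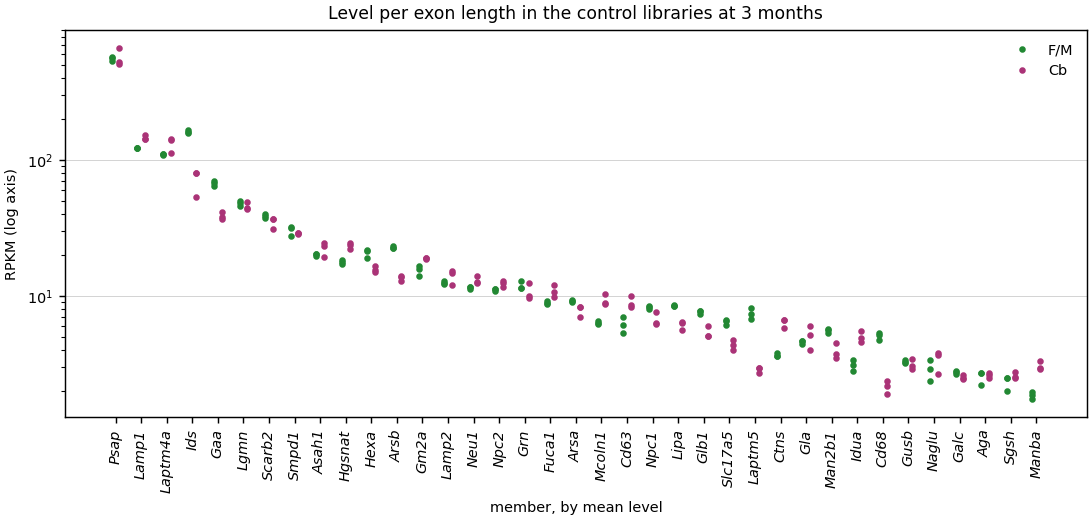
Level per exon length (RPKM, log axis) of the 37 lysosomal genes in the control libraries at 3 months, ordered by mean level, with green points for F/M and purple points for Cb, 1 point per library and 3 libraries per region. Psap, at 559 RPKM in F/M and 568 RPKM in Cb, lies above all other genes, and Ids, Gaa, Arsb, Laptm5 and Cd68 show separate F/M and Cb points.

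The 2 control regions were compared to describe where these genes are expressed. Genes were called at an adjusted p under 0.1 (edgeR's quasi-likelihood test with Benjamini-Hochberg adjustment over all genes tested). At 1 month 22 of the 37 were called, 11 higher in Cb and 11 higher in F/M, against 59.4% of all genes tested (29.7% in each direction). At 2 months 28 were called, 15 higher in Cb and 13 higher in F/M, against 70.1% (34.7% and 35.4%), and at 3 months 19 were called, 8 and 11, against 57.8% (29.6% and 28.2%). These shares, 59.5%, 75.7% and 51.4% of the members, lay near the background, so the lysosomal genes differed between the regions about as often as genes in general. The median log2 difference of the members, Cb minus F/M, was 0.07, 0.03 and 0.02 at the 3 ages, beside 0.02, -0.01 and 0.04 over all genes.

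Of the 37 genes, 10 were called higher in F/M at all 3 ages, 5 were called higher in Cb at all 3 ages, 17 were called at 1 or 2 ages and 5 (Psap, Smpd1, Gla, Gusb and Galc) at none. Of the 16713 genes tested at all 3 ages, 23.3% were called higher in F/M at each age, 21.7% were called higher in Cb at each age and 17.5% were called at none. The largest differences toward F/M were those of Cd68 and Laptm5, membrane proteins of phagocyte lysosomes. The 3-month control libraries held 6.47, 6.78 and 6.01 CPM of Cd68 for F/M, all above the 2.74, 2.98 and 2.41 CPM for Cb, and the log2 differences were -1.28, -1.77 and -1.24 at the 3 ages. For Laptm5 they were -1.29, -1.42 and -1.36. The 20 microglia markers, none of which is among the 37 genes, were all called lower in Cb than in F/M at each age, with median log2 differences of -1.49, -1.54 and -1.49. In bulk tissue, fewer cells of a type and less RNA per cell cannot be told apart.

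Enzymes followed. At 1 month the F/M controls held 759, 771 and 769 CPM of Ids, well above the 354, 382 and 370 CPM of the Cb controls. Its log2 differences were -1.06, -0.90 and -1.19. Gaa differed by -0.80, -0.87 and -0.79, and Arsb, the arylsulfatase B of dermatan sulfate breakdown, by -0.77, -0.60 and -0.75. Man2b1, the lysosomal alpha-mannosidase, was also among the 5 largest at 2 months, with -0.68. Glb1, Hexa, Lipa and Slc17a5 completed the 10, with differences between -0.23 and -0.59.

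In the other direction, Manba was called higher in Cb by 0.70, 0.61 and 0.72 and Ctns, the cystine transporter cystinosin, by 0.70, 0.55 and 0.79. The 3-month Cb controls held 23.2, 20.6 and 20.4 CPM of Manba, all above the 12.2, 13.7 and 13.1 CPM of the F/M controls. Idua, the alpha-L-iduronidase, differed by 0.45, 0.27 and 0.70, Hgsnat, the acetyltransferase of heparan sulfate breakdown, by 0.48, 0.53 and 0.40 and Lamp1 by 0.28, 0.18 and 0.26. Members of the 5 largest at a single age were Naglu at 1 month with 0.65, Lamp2 with 0.49 and Gm2a with 0.36 at 2 months, and the calcium channel gene Mcoln1 with 0.55 and the tetraspanin gene Cd63 with 0.54 at 3 months. Enzymes of the same pathway differed in opposite directions, since Ids and Arsb were higher in F/M while Idua and Hgsnat were higher in Cb.

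**Figure D2:**
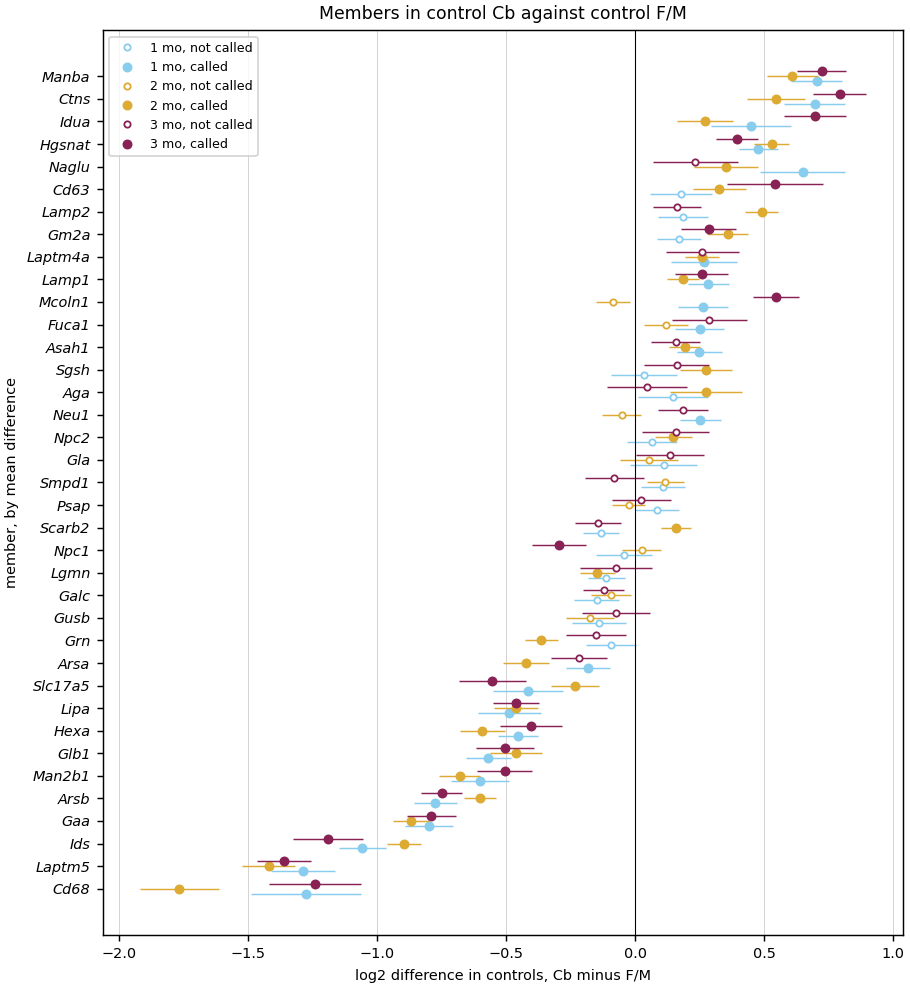
Log2 difference of control Cb minus control F/M for the 37 lysosomal genes at 1, 2 and 3 months, ordered by the mean over ages, from 3 control libraries per region and age, with bars of 1 SE and filled points for called differences. Cd68 and Laptm5 lie below -1.2 at each age, and Manba and Ctns lie above 0.5.

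Loss of Tpp1 was compared with control within each region and age, to ask whether these genes change while the disease develops. At 1 month edgeR called none of the 37 in F/M or in Cb, against 0.0112% of all genes tested in each region. At an unadjusted p under 0.05, 1 member in F/M and 8 in Cb passed, all higher in Tpp1-/-, beside 1.89% and 7.66% of all genes (0.904% and 4.31% higher). The 1 in F/M was Grn, and the 8 in Cb were Arsa, Cd63, Fuca1, Glb1, Grn, Lgmn, Npc2 and Psap, each with an edgeR adjusted p of 0.63. In the same Cb libraries 6 of the 20 microglia markers passed an unadjusted p under 0.05, all higher, and 17 were positive (median 0.22), while 5 of the 14 choroid plexus markers passed it and all 14 were positive (median 0.62). Their part in the values of the 8 members was not tested. DESeq2 and limma-voom called 0 members as well, and so did a fit without the heterozygous libraries, but 7 were called in Cb without Tpp1-/- replicate 3, a fit that called 8% of all genes. The Tpp1-/- libraries of Cb at 1 month were uneven. Replicate 1 differed from the other replicates with a chi-square per degree of freedom over genes of 43.7 and 45.5, against 17.4 between replicates 2 and 3. Without replicate 1, 0 members were called in Cb (0.00547% of all genes). The log2 fold changes of the 37 genes at 1 month ran from -0.16 to 0.27 in F/M (median 0.05) and from -0.18 to 0.35 in Cb (median 0.10). At 2 months 1 member was called in F/M (background 3.17%) and 1 in Cb (background 3.08%), with ranges of -0.16 to 0.44 (median 0.05) and -0.28 to 0.29 (median 0.03). At 3 months 2 were called in F/M (background 0.488%) and 4 in Cb (background 0.952%), which is 5.41% and 10.8% of the members. All 6 calls of 3 months were higher in Tpp1-/- (background 0.424% in F/M and 0.714% in Cb) and at least 1.5-fold (background 0.464% and 0.859%), and no member reached 1.5-fold at 1 or 2 months.

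**Figure D3:**
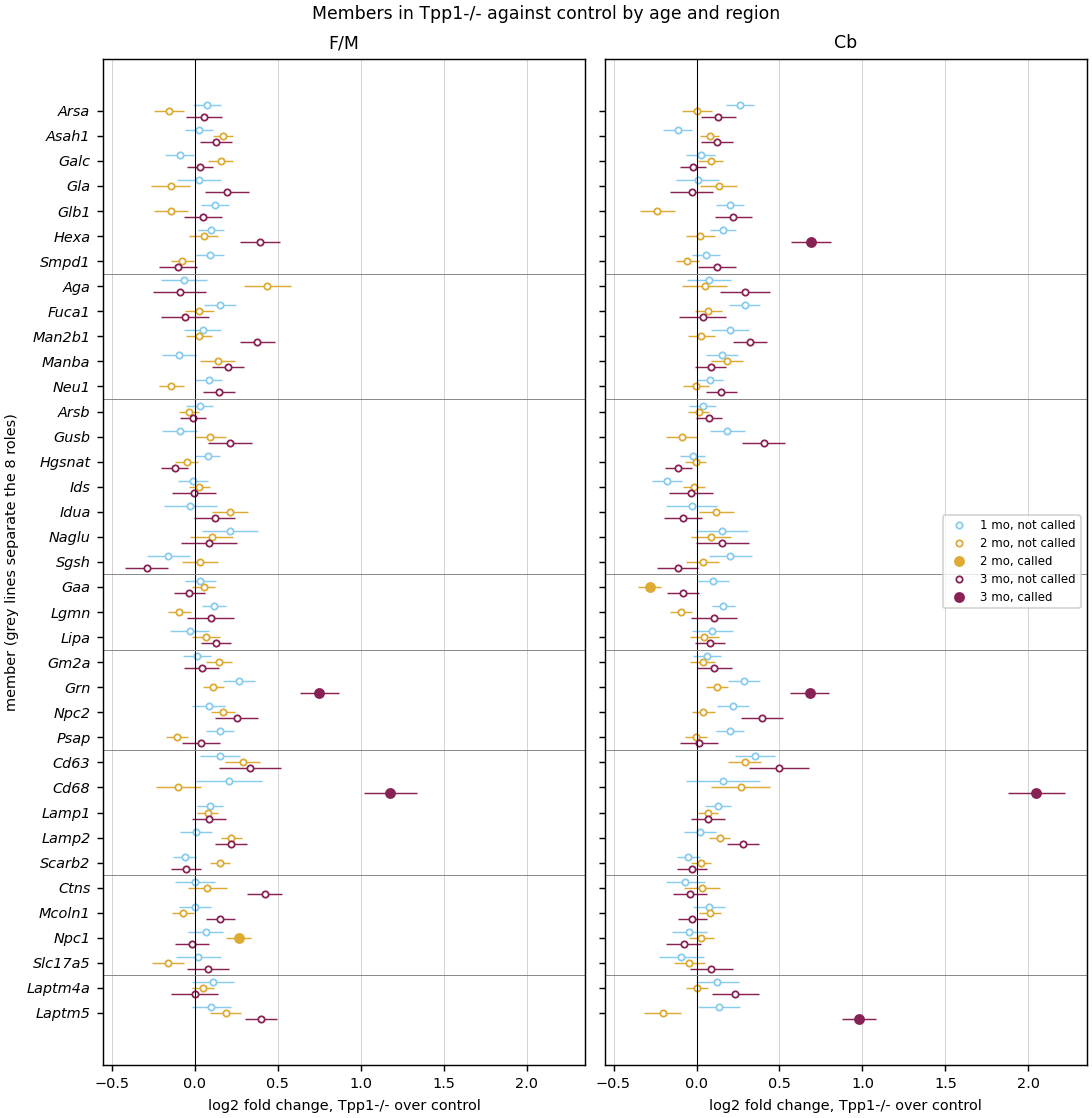
Log2 fold change of Tpp1-/- against control for the 37 lysosomal genes by age in F/M and Cb, from 3 libraries per group, with bars of 1 SE, filled points for called changes and grey lines between the 8 roles. Most genes lie near 0 in each comparison, while Cd68 reaches 2.05 and Laptm5 0.98 in Cb at 3 months.

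Cd68 was the member with the largest change. Its gene lies at chr11:69664213-69666153 on the minus strand of GRCm38, and its product, macrosialin, is a heavily glycosylated lysosomal membrane protein of microglia and macrophages. In Cb at 3 months it was at 2.74, 2.98 and 2.41 CPM in controls and 14.3, 9.57 and 9.72 CPM in Tpp1-/-. The groups were far apart, and Tpp1-/- replicate 1 was the highest library. The log2 fold change was 2.05 (SE 0.17), 4.13-fold, with an edgeR adjusted p of 1.96e-05, and 1.83 without that library. The F/M controls of 3 months held 6.47, 6.78 and 6.01 CPM and the Tpp1-/- libraries 15.1, 13.7 and 14.7 CPM, a log2 fold change of 1.18 (SE 0.16), 2.26-fold, with an edgeR adjusted p of 0.00377. At 2 months the groups overlapped in both regions. For Cb the values were 2.19, 2.17 and 2.65 CPM and 2.95, 2.5 and 3.0 CPM, and for F/M 7.57, 9.27 and 7.02 CPM and 6.68, 8.01 and 7.75 CPM.

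Laptm5, at chr4:130913125-130936141 on the plus strand, encodes a lysosomal transmembrane protein of haematopoietic cells and microglia. In Cb at 3 months it was at 11.3, 10.4 and 11.3 CPM in controls and 23.1, 20.4 and 21.6 CPM in Tpp1-/-, with no overlap and little spread. The log2 fold change was 0.98 (SE 0.10), 1.97-fold, with an edgeR adjusted p of 0.000183. The F/M values of 3 months were 31.0, 28.2 and 25.6 CPM and 39.0, 37.8 and 35.0 CPM. These groups did not overlap either, but the log2 fold change of 0.40 (SE 0.10) had an edgeR adjusted p of 0.166. Its relative, the broadly expressed Laptm4a, was at a log2 fold change of 0.23 in Cb and 0.00 in F/M and was not called.

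Grn, at chr11:102430315-102437048 on the plus strand, encodes progranulin, a secreted protein that is cleaved to granulins in lysosomes and whose complete loss in humans causes another neuronal ceroid lipofuscinosis. The F/M controls of 3 months held 39.7, 44.9 and 40.2 CPM and the Tpp1-/- libraries 72.9, 72.2 and 64.6 CPM. The log2 fold change was 0.75 (SE 0.12), 1.68-fold, with an edgeR adjusted p of 0.00909. The Cb values of 3 months were 35.1, 33.8 and 43.2 CPM and 68.3, 55.3 and 56.2 CPM, a log2 fold change of 0.68 (SE 0.12) with an edgeR adjusted p of 0.0122. Every Tpp1-/- library was above every control here. At 1 month the Grn groups did not overlap either, with log2 fold changes of 0.27 in F/M and 0.29 in Cb that were not called (edgeR adjusted p of 1 and 0.63).

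Hexa, at chr9:59539540-59565109 on the plus strand, encodes the alpha subunit of beta-hexosaminidase, which removes a terminal sugar from GM2 ganglioside. The Cb values of 3 months were 29.9, 31.0 and 33.3 CPM in controls and 61.9, 44.9 and 45.0 CPM in Tpp1-/-. The lowest Tpp1-/- library was above every control, and replicate 1 stood apart from the other two. The log2 fold change was 0.69 (SE 0.12), 1.61-fold, with an edgeR adjusted p of 0.0138, and 0.52 without replicate 1. In F/M it was at 43.6, 43.2 and 38.0 CPM and 54.7, 55.2 and 53.9 CPM, and the log2 fold change of 0.39 (SE 0.12) had an edgeR adjusted p of 0.364. In a fit of the 6 Cb libraries alone, Grn and Hexa had nearly the same log2 fold changes, 0.69 and 0.69, but were not called (edgeR adjusted p of 0.229 and 0.287). Exons of Hexa and Grn overlap genes on the opposite strand by 255 and 68 bases, so some of their counts depend on the strand setting.

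Microglia markers moved with these members. In Cb at 3 months the summed level of the 20 markers was 147.76 to 175.74 CPM in controls and 298.7 to 448.46 CPM in Tpp1-/-, all 20 were positive (log2 fold changes from 0.14, median 0.89) and 12 were called, with Fcrls at 1.93, C1qa at 1.96 and Tyrobp at 1.89 on the log2 scale. The F/M sum at 3 months was 438.18 to 466.44 CPM and 564.64 to 617.38 CPM, 17 of the 20 were positive and 3 negative (median 0.38), and 3 were called. No marker was at 0 in any library. None of the 20 was called by edgeR at 1 or 2 months. Gfap, the intermediate filament gene of astrocytes, was also called higher at 3 months, with log2 fold changes of 1.41 in F/M and 1.77 in Cb, and by 0.31 in F/M at 2 months. It was the 1 called of 10 astrocyte markers in each region at 3 months, and the median of the 10 was 0.00 for F/M and 0.03 for Cb. For the F/M libraries of 2 months, 4 of the 10 were called higher and all 10 were positive, with a median of 0.30. The part of these cells in the changes of Cd68, Laptm5, Grn and Hexa was not tested.

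**Figure D4:**
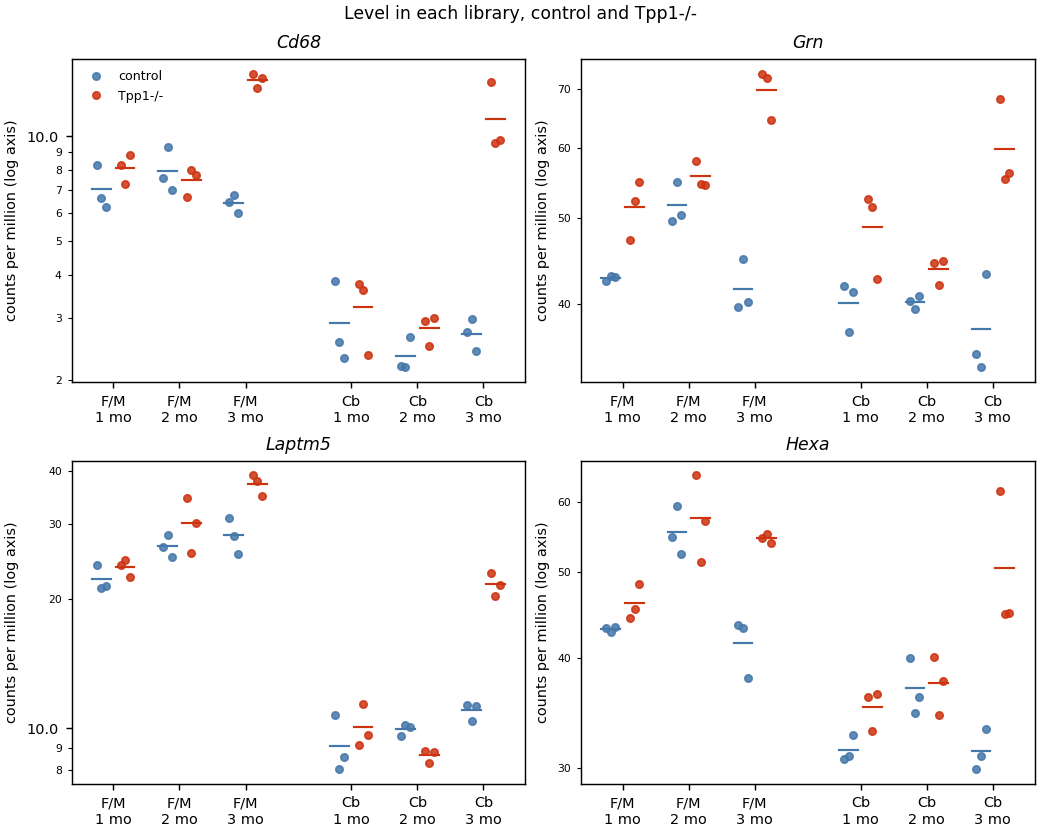
Levels of Cd68, Grn, Laptm5 and Hexa in every library by region and age, as CPM on log axes, with blue points for control and red points for Tpp1-/- libraries, 3 per group, and lines at the group means. At 3 months the Tpp1-/- points of Cd68 lie above all controls in both regions, and replicate 1 is the highest Tpp1-/- library of Cb for all 4 genes.

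The bases just before the RefSeq start of the 4 members called in Cb at 3 months (GRCm38.p6) are shown as a description of these genes. The stretches of Cd68 (chr11:69666171-69666270, minus strand) and Hexa (chr9:59539440-59539539, plus strand) hold 100 bases, and those of Laptm5 (chr4:130913286-130913315) and Grn (chr11:102430477-102430506), both on the plus strand and within annotated exons of longer transcripts, hold 30.
Cd68: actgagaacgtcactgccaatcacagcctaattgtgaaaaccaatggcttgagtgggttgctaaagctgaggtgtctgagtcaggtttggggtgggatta
Hexa: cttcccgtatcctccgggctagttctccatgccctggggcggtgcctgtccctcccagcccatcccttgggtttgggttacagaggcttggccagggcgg
Laptm5: ttttgttctgctgtgggcccaagactcctt
Grn: ggccaagccctagtcctggagctgaccgcc

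RefSeq windows from 250 bases before to 50 after the start were matched for 33 of the 37 members. The E-box core CACGTG, which reads the same on both strands, was in 9 of the 33 (27.3%) and in 8.09% of 27025 genes with a window. TCACGTG, searched on both strands and containing the core, was in the same number, 9 of 33, and in 4.29% of genes. The 9 were Mcoln1, Lamp1, Glb1, Naglu, Gaa, Sgsh, Lgmn, Arsa and Gla, and Lamp1 held 4 cores. None of the 4 members called in Cb at 3 months held it. Stretches of 30 bases around the core, in capitals, are shown for 6 of these, those with the smallest p in that comparison, at chr9:114401018-114401047 (plus), chr15:89477423-89477452 (minus), chr11:101070009-101070038 (plus), chr11:119355522-119355551 (minus), chr11:119267811-119267840 (plus) and chr12:102439124-102439153 (minus), in the order of the lines. Those of Arsa, Naglu and Sgsh overlap annotated exons of the same gene.
Glb1: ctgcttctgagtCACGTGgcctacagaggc
Arsa: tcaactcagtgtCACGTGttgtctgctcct
Naglu: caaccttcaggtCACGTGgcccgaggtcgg
Sgsh: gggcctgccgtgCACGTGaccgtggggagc
Gaa: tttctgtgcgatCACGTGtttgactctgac
Lgmn: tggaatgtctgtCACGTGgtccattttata

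None of the 9 genes with the core was called at 3 months, when 0.952% of all genes were called in Cb and 0.488% in F/M. At that age the log2 fold changes of the 9 in Cb ran from -0.11 to 0.22 with a median of 0.07. The 24 whose window lacks the core ran from -0.08 to 2.05 with a median of 0.11. In F/M the 9 ran from -0.29 to 0.19, with a median of 0.09 beside 0.14. At 1 month the medians were 0.15 beside 0.11 in Cb and 0.07 beside 0.04 in F/M. All 9 were positive in Cb then, as were 19 of the 24. At 2 months the medians were 0.04 beside 0.03 in Cb and -0.07 beside 0.07 in F/M. Gaa, 1 of the 9, was called lower in Cb at 2 months (background 3.08%). A match is a description of the letters in the window, and the binding of a factor was not measured.

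Most of the other members differed little between genotypes at 3 months. In Cb, 26 of the 37 had a positive log2 fold change, the median was 0.11 against 0.00 over all genes, and 25 lay within 0.2 of 0. In F/M, 26 were positive, the median was 0.09 against 0.00, and 26 lay within 0.2. By role in Cb, the enzymes of glycosaminoglycan breakdown ran from -0.11 to 0.40 (median -0.03), those of glycoprotein breakdown from 0.04 to 0.32 (median 0.15), and those of glycolipid and sphingolipid breakdown, Hexa among them, from -0.03 to 0.69 (median 0.12). The 3 genes of glycogen, neutral lipid and protein breakdown ran from -0.08 to 0.11 and the 4 transporters and channel from -0.08 to 0.09, and none was called. Activators and other luminal proteins, Grn among them, ran from 0.02 to 0.68 (median 0.25) and membrane glycoproteins, Cd68 among them, from -0.03 to 2.05 (median 0.28).

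At 3 months in F/M, the groups of 20 members did not overlap, 18 higher and 2 lower in Tpp1-/-, which is 54.1% against 24.1% of all genes tested. In Cb they were 8, or 21.6% against 8.67%. The excess was not limited to 3 months. At 1 month the groups of 12 members did not overlap in F/M, 10 of them higher (32.4% against 14.8%). In Cb at 1 month they were 8, all higher (21.6% against 7.97%). At 2 months the shares were 18.9% against 18.3% in F/M and 21.6% against 18.1% in Cb. The 10 oligodendrocyte markers were all negative in F/M at 3 months (median -0.21, none called), with mean log2 CPM of 8.15 to 8.18 in controls and 7.85 to 7.98 in Tpp1-/-. The mean log2 CPM of the 8 neuron markers in Cb at 3 months was 8.96 to 9.02 in controls and 8.82 to 8.91 in Tpp1-/-, again without overlap. Other lists also separated the genotypes at 3 months. The score of the astrocyte markers, Gfap among them, was 7.91 to 7.98 in controls and 8.05 to 8.12 in Tpp1-/- for F/M. For Cb it was 8.29 to 8.35 and 8.49 to 8.59. The cerebellar markers in F/M were at 1.75 to 1.88 and 1.47 to 1.63. The forebrain markers in Cb were at 0.34 to 1.13 and -0.07 to 0.16. The part of these lists in the counts of members was not tested. Man2b1 and Ctns were among the members without overlap in F/M at 3 months that were not called. Man2b1 was at 46.3, 42.8 and 45.5 CPM in controls and 57.3, 59.8 and 57.6 CPM in Tpp1-/-. Ctns was at 12.2, 12.2 and 13 CPM and 16.7, 15.6 and 17.8 CPM. Their log2 fold changes were 0.38 and 0.42, with edgeR adjusted p of 0.267 and 0.186. In a fit of the 6 F/M libraries alone, 10 members were called, Man2b1 and Ctns among them, against 11.1% of all genes tested in that fit. In Cb, Npc2, the soluble cholesterol carrier, was at 68.0, 70.6 and 63.9 CPM and 113, 73.6 and 79.6 CPM, and Cd63 at 30.8, 31.6 and 36.8 CPM and 64.4, 34.8 and 40.7 CPM. Both were far higher in Tpp1-/- replicate 1 than in the other two, and this library was the highest of the 3 Tpp1-/- libraries for 23 of the 37 genes and the lowest for 11. It stood apart from replicates 2 and 3, with a chi-square per degree of freedom over genes of 76.7 and 62.9, against 2.95 between those 2. Without it 5 members were called in Cb at 3 months (2.66% of all genes). Among the Cb controls of 3 months, replicate 3 stood apart in the same way, at 35.1 and 40.9 against the other two, which differed by 2.18. Without it 5 members were called in Cb at 3 months (1.53% of all genes), among them Cd68 at 1.97, Laptm5 at 1.00, Grn at 0.80 and Hexa at 0.73.

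The calls of 2 months were single genes of small size. Npc1, the cholesterol exporter of the lysosomal membrane, was at 82.4, 70.0 and 80.7 CPM in control F/M and 102, 87.6 and 89.997 CPM in Tpp1-/- F/M, and the groups did not overlap. The log2 fold change was 0.26 (SE 0.08) with an edgeR adjusted p of 0.0954. The call was lost without control replicate 2 or 3 or Tpp1-/- replicate 1 or 3 (log2 fold changes of 0.19 to 0.29). Exons of Npc1 overlap Rmc1 and Gm15956 on the opposite strand by 511 and 90 bases, so some of its counts depend on the strand setting. The mean log2 CPM of the 10 astrocyte markers in these libraries was 7.75 to 7.78 in controls and 7.88 to 8.19 in Tpp1-/-. For the 10 cerebellar markers it was 2.20 to 2.24 and 2.42 to 2.71, with 7 positive, 3 negative and 4 called higher. For the 10 forebrain markers it was 6.05 to 6.11 and 5.89 to 5.96, with 9 negative and 1 called lower. The part of these 3 lists in the Npc1 value was not tested. Gaa was at 201, 194 and 192 CPM in control Cb and 165, 150 and 168 CPM in Tpp1-/- Cb. Its log2 fold change was -0.28 (SE 0.07) with an edgeR adjusted p of 0.037, and in F/M the groups overlapped at 326, 394 and 352 CPM and 372, 373 and 368 CPM. The call was lost without any 1 of the 3 controls or Tpp1-/- replicate 2, and Gaa stayed negative in these 4 fits. The midbrain and thalamus markers, which fell in these Tpp1-/- Cb libraries, moved with it. So did the 10 oligodendrocyte markers, of which 9 were negative and 2 were called lower (median -0.25), with mean log2 CPM of 7.94 to 8.01 in controls and 7.62 to 7.85 in Tpp1-/-, and 3 of the 10 forebrain markers were called lower. The part of these 2 lists in the Gaa value was not tested. The midbrain and thalamus score separated the genotypes without overlap, so this score and genotype cannot be told apart in Cb at 2 months. With the score as a covariate, 0.029% of all genes were called and the Gaa value was 0.05. The F/M score of these markers at 2 months was 2.48 to 2.5 in controls and 3.01 to 3.18 in Tpp1-/-, again without overlap. With it as a covariate 0.0929% of all genes were called, and Npc1, at 0.22, was not among them.

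The difference of the Tpp1-/- effect between Cb and F/M was called for none of the 37 genes at any age by edgeR, against 0%, 2.97% and 0.00581% of all genes at 1, 2 and 3 months. At an unadjusted p under 0.05 there were 0, 3 and 3 members, beside 1.94%, 11.5% and 3.51% of all genes. At 3 months, Laptm5 differed by 0.58 (SE 0.14, edgeR adjusted p of 0.685) and Cd68 by 0.87 (SE 0.23, edgeR adjusted p of 0.905), Cb above F/M, and Ctns by -0.46 (SE 0.15, edgeR adjusted p of 1), F/M above Cb. The larger Cb effects of Laptm5 and Cd68 were thus not shown to differ from those in F/M. At 2 months Gaa differed by -0.34 (SE 0.10, edgeR adjusted p of 0.105), Laptm5 by -0.39 (SE 0.15, edgeR adjusted p of 0.264), opposite in sign to its value of 3 months, and Npc1 by -0.23 (SE 0.11, edgeR adjusted p of 0.406).

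The effect at 3 months was tested against the earlier ages in a model of all 36 libraries over the 18322 genes tested. Age cannot be told apart from the processing of each age. Between 3 and 2 months in Cb, 4 members were called (background 1.44%). The effect was larger at 3 months by 1.18 (SE 0.16) for Laptm5, 1.78 (SE 0.28) for Cd68, 0.67 (SE 0.14) for Hexa and 0.56 (SE 0.13) for Grn on the log2 scale, with edgeR adjusted p of 7.89e-06, 0.00015, 0.00435 and 0.0188. Without Tpp1-/- replicate 1 of 3 months, Grn was at 0.45 and not called. In F/M, Cd68 was larger by 1.28 (SE 0.24) and Grn by 0.65 (SE 0.13), with edgeR adjusted p of 0.0144 and 0.0218 (background 0.393%). Between 3 and 1 months in Cb, Cd68, Laptm5 and Hexa were called (background 0.458%), by 1.89, 0.85 and 0.53, and the call of Hexa, with an edgeR adjusted p of 0.0993, was lost in 9 of 16 alternatives. In F/M none was called between these ages (background 0.153%), where Cd68 was at 0.98 with an edgeR adjusted p of 0.142.

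Among other lysosomal genes, 4 of 12 cathepsin genes tested were called higher in Cb at 3 months, and all 12 were positive with a median of 0.43. Ctss, a protease of microglia and other phagocytes, was at 1.44 (SE 0.15), Ctsd at 0.98 (SE 0.16), Ctsc at 0.87 (SE 0.12) and Ctsh at 0.75 (SE 0.16) on the log2 scale. Of the 12, 1 was called in F/M at 3 months, Ctss at 0.86 (SE 0.15). None of 18 V-ATPase subunits, 23 other membrane proteins or 18 regulators and targeting genes was called in either region at 3 months. At 2 months, Pld3 at -0.35 in Cb was the 1 called of 22 other hydrolases, and the calls in the remaining lists were, in F/M, Slc29a3 at 0.44 and the V-ATPase genes Atp6v1e1 and Atp6v0e2 at -0.25 each. No gene of these lists was called by edgeR at 1 month.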

How the data were processed

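RNA-seq counts of 36 mouse brain libraries were analysed. The authors aligned reads with STAR 2.5.2b and deposited raw counts per gene, made with featureCounts. Per the file headers, GENCODE M21 was used at 1 month, M16 at 2 months and M18 at 3 months, with strand settings of 1, 2 and 1. Groups came from the labels. The counts were analysed with edgeR 4.0.16 in R 4.3.3 (TMM scaling, filterByExpr, quasi-likelihood F test over the 12 libraries of an age, Benjamini-Hochberg adjustment over all genes), and genes were called at an adjusted p under 0.1. CPM are scaled by TMM, and RPKM divide them by exon length. SE is the log2 fold change divided by the square root of F. The procedure was tested on simulated counts. DESeq2 1.42.0, limma-voom (limma 3.58.1), other scaling, no filter, a replicate block, marker covariates, wild-type controls only and leaving out libraries were tried. Counts cover 17916, 17229 and 17224 genes tested.

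The members and lists were chosen with earlier results of these data known. Full values were given for called members, the 5 largest differences of each direction between regions, the 5 highest and 5 lowest levels, and up to 5 called genes of each other lysosomal list. A result among these lists is not reported here. Promoter sequences were from RefSeq (GRCm38.p6). Nothing in the labels says more than that libraries of a group are separate samples, so p-values measure the spread between these samples. At 1 month, same-numbered libraries of the regions deviated together (lowest correlation 0.17 in controls and 0.101 in Tpp1-/-), and the block left the 22 region calls of that age at 22. At 2 months 6 of 6 Tpp1-/- libraries correlated best with their own number in the other region (lowest 0.093), and 0 of 6 controls did. The block left the members called for the difference between the regions in the Tpp1-/- effect at 0 at 2 months (2.89% of all genes).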

Additional observations from a re-analysis of the deposited data

Results flagged for a closer look

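The effect of Tpp1 loss differed between ages for 4 of the 37 genes, by a test of the difference itself in the model of all libraries. In Cb, between 3 and 2 months, the differences were 1.18 for Laptm5, 1.78 for Cd68, 0.67 for Hexa and 0.56 for Grn on the log2 scale, where 1.44% of all genes were called. In Cb, between 3 and 1 months, they were 1.89 for Cd68, 0.85 for Laptm5 and 0.53 for Hexa, where 0.458% of all genes were called, and the call of Hexa was lost in 9 of 16 alternatives. In F/M, between 3 and 2 months, they were 1.28 for Cd68 and 0.65 for Grn, where 0.393% of all genes were called. All were larger at 3 months, and age and the processing of each age cannot be told apart.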

How the results depend on the processing

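The calls of Cd68 in both regions, of Laptm5 in Cb and of Grn in F/M at 3 months held under every alternative run. In F/M at 3 months, 10 members were called with only the 6 libraries compared (11.1% of all genes) and 4 when the fit held the choroid plexus score (0.662%), and 2 to 2 when 1 library was left out. In Cb at 3 months, 2 were called with only the 6 libraries (0.282%), and 4 to 5 with 1 library left out. In F/M at 2 months, 2 were called by DESeq2 (3.99% of all genes), by limma-voom (3.3%) and with the replicate block (3.52%), 7 with the choroid plexus score (17.2% of all genes), and 0 with RLE size factors (2.87%), only the 6 libraries (0.574%), the midbrain and thalamus score (0.0929%) or a fold of at least 1.5, and 0 to 5 with 1 library left out, 5 without control replicate 1 (12.6% of all genes). In Cb at 2 months, 2 were called with only the 6 libraries (3.88%), 4 with the choroid plexus score (12.4%), 0 with the midbrain and thalamus score (0.029%) or a fold of at least 1.5, and 0 to 1 with 1 library left out. Gaa there changed sign to 0.0453 with the midbrain and thalamus score, which at 2 months cannot be told apart from genotype. In Cb at 1 month, 0 to 7 were called with 1 library left out, 7 without Tpp1-/- replicate 3 (8% of all genes). For the difference between regions at 2 months, 1 (Gaa) was called by DESeq2, by limma-voom, with RLE size factors and with no filter, and 0 to 1 with 1 library left out. Between 3 and 1 months in F/M, 1 (Cd68) was called with no filter and with the replicate block, and in Cb 2 to 5 with 1 library left out, 5 without the Tpp1-/- library of replicate 1 at 3 months. Without that library, Grn in Cb was not called between 3 and 2 months (0.45). Hexa between 3 and 1 months in Cb was lost in 9 of 16 alternatives, limma-voom and the replicate block among them. The cause of these changes was not tested. Same-numbered control and Tpp1-/- libraries are of the same sex, but nothing in the labels ties them to a litter or day. Their lowest correlation was at most 0.079 in each region and age, although 5 of 6 F/M libraries of 1 month correlated best with their own number. The pairs of that group were at 0.295, 0.079 and 0.197, beside a mean of -0.094 for other pairs. In Cb at 1 month they were at 0.211, -0.147 and 0.31, beside -0.062. In Cb at 1 and 2 months and in F/M at 3 months, 4 of 6 correlated best with their own number. In F/M at 2 months 1 of 6 did, and in Cb at 3 months 2 of 6. The replicate block changed no other count of calls by over 1.5 times.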
